A study of Mus musculus with 19 samples.

Results

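Catspere1, Gm3788, Gm7993, Gm6560 and Rpl3-ps1 are 5 mouse genes that the GENCODE annotation lists as pseudogenes, and they were taken by name from 54232 genes counted in the striatum. They were picked because their counts had looked on or off from mouse to mouse in these same data, so their levels and differences are given as a description without any test. All 5 passed the filter on low counts, with 18521 genes in total. The on-off description held for Catspere1 and Gm7993, whose levels fell into separate classes of mice. It did not hold for Rpl3-ps1, Gm3788 and Gm6560, whose levels ran on without a wide break.

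A pseudogene is a copy of a gene that is not known to make the gene's full protein. Processed pseudogenes arise when an mRNA is copied back into DNA and inserted elsewhere in the genome without introns, whereas unprocessed pseudogenes come from duplication of the gene itself and can keep its exons. Because such copies resemble their source gene, short reads can often be placed on either of them, and inbred mouse lines can differ in which copies they carry.

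Gm3788, Gm7993, Gm6560 and Rpl3-ps1 are annotated as processed pseudogenes with 1 exon, and Catspere1 as an unprocessed pseudogene with 19 exons. RefSeq lists Catspere1 as protein coding. Catspere1 (ENSMUSG00000102483.1) lies on the plus strand of GRCm38 at chr1:177808550-177962233, and its exons span 2949 bases. The Catspere genes code for the epsilon subunit of CatSper, the calcium channel of the sperm tail. Gm3788 (ENSMUSG00000094392.1) lies on the minus strand at chr3:86672033-86672168, inside Lrba, which is transcribed from the other strand. Gm7993 (ENSMUSG00000107092.1) lies on the plus strand at chr5:95974240-95975623, and Gm6560 (ENSMUSG00000104913.1) on the minus strand at chr5:22724578-22726168, where it overlaps 6030443J06Rik on the other strand. Both are on the chromosome of Htt, at 61.1 Mb (Gm7993) and 12 Mb (Gm6560) from it. Rpl3-ps1 (ENSMUSG00000084349.3) lies on the plus strand at chrX:13202571-13203780.

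Each pseudogene was aligned to all other annotated GENCODE transcripts to find the gene it most resembles. Rpl3-ps1 matched Rpl3, a protein of the large ribosomal subunit, over all 1210 bases with 2 substitutions, C58A and T787C, where the Rpl3 base comes first and positions are counted from the 5′ end of Rpl3-ps1. Within the 1210 bases of the copy, these are the only bases at which a read could tell Rpl3-ps1 from Rpl3. The stretches around them are shown with the differing base in capitals:
Rpl3-ps1 at chrX:13202604-13202652: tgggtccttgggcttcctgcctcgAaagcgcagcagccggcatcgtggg
Rpl3: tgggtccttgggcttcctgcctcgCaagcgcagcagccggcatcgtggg
Rpl3-ps1 at chrX:13203333-13203381: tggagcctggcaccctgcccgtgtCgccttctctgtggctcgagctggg
Rpl3: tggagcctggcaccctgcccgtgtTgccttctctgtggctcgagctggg

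Gm7993 matched Odc1, ornithine decarboxylase, the rate-limiting enzyme of polyamine synthesis, with 31 substitutions and 3 gaps over 1366 aligned bases. The pair differs less over its whole length than in the gapless 60-base stretch with the most substitutions, 7. That stretch is shown with differing bases in capitals:
Gm7993 at chr5:95975117-95975176: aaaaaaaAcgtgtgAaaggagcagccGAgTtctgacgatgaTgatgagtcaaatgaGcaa
Odc1: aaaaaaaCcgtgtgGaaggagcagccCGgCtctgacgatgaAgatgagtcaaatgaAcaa

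Gm3788 matched the coding sequence of Tmsb10, thymosin beta 10, a protein that binds actin monomers. Its 136 bases differ from the 135 bases of Tmsb10 by 1 extra base and no substitution, and the whole copy is shown with the extra base in capitals:
Gm3788 at chr3:86672033-86672168: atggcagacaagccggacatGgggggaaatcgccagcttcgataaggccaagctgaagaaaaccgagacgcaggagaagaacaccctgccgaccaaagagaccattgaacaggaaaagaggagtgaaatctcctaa
Tmsb10: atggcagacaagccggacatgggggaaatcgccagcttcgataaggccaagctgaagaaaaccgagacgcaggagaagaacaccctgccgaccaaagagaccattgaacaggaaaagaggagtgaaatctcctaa

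Gm6560 matched Pkm, the pyruvate kinase of muscle and brain that makes pyruvate at the end of glycolysis, with 24 substitutions and 2 gaps over 1591 aligned bases. Catspere1 matched Catspere2, which lies 21.2 kb beyond it on the same strand, at 89.69% identity over 3036 aligned positions. A stretch of the pair is shown because their levels are compared below, with differing bases in capitals:
Catspere1 at chr1:177826143-177826202: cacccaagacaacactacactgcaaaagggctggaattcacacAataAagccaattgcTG
Catspere2: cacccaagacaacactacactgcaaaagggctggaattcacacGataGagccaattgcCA

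The chance that a read fits elsewhere was measured as the share of all 100-base windows of a pseudogene that occur without change in another annotated gene. This share was 94.8% for Rpl3-ps1, 43.2% for Gm3788, 19.8% for Gm7993, 11.5% for Catspere1 and 10.5% for Gm6560. With windows of 150 bases it fell to 4.71% or less for Catspere1, Gm7993 and Gm6560 and was 94.5% for Rpl3-ps1, and Gm3788 is too short for such a window. Of the 100-base windows of Rpl3-ps1, 85.8% occur in Rpl3, and the rest of the 94.8% only in other annotated genes. A base that separates Rpl3-ps1 from Rpl3 thus need not separate it from other copies. Only annotated transcripts were searched, so copies that are not annotated were not counted. The values of Rpl3-ps1 and Gm3788 are therefore uncertain, since the counting of reads that fit several copies decides them.

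The mice were 6 months old, on a background labelled C57/BL/6, and comprised 7 WT animals and 4 animals each of the lines KI-FL, KI-571 and KI-96. KI-FL mice are HD140Q knock-in mice that express full-length mutant HTT from the Htt gene. KI-571 and KI-96 mice were made by injecting CRISPR/Cas9 into HD140Q zygotes, so that the mutant allele ends early and an N-terminal HTT fragment with the expanded repeat is made, which is shorter in KI-96 than in KI-571 mice. KI-96 and KI-571 founders were crossed with WT mice to obtain heterozygous animals. The KI-571 line goes back to 1 founder and the KI-96 line to 3, so in KI-571 mice the mutation and the founder's other DNA cannot be told apart. Littermates are said to have been used within an experiment, but which mice shared a litter, which KI-96 founder each mouse descends from, and the sex and sacrifice batch of each mouse are not given in the sources used here. The study left out 1 WT sample as a possible outlier and included the sacrifice batch in its model. Here all 7 WT mice were kept, since that sample is not named and may or may not be among them. No batch term could be fitted. The study's methods describe fewer mice per genotype than the 7 WT mice here, so which of these it used is not known.

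The libraries held between 12669809 and 26388542 counts on genes (median 18202412), and 3 counts equalled 0.114 to 0.237 CPM (counts scaled to a common library size). Htt itself, counted without regard to allele, was at 168 to 195 CPM in WT, 143 to 240 CPM in KI-96, 104 to 141 CPM in KI-571 and 137 to 179 CPM in KI-FL mice. All 9 markers of striatal projection neurons had at least 2019 counts in every mouse. High Xist and low Y-linked genes were found in 6 mice (KI-FL replicate 2, WT replicate 1 and every KI-96 mouse). KI-FL replicate 4 stood apart, with 3186 of the tested genes at 0 counts against 10 to 222 in the other mice. These libraries are named below wherever a result rests on them.

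Catspere1 was present in 6 of 7 WT mice and 3 of 4 KI-FL mice and was absent or nearly absent in the other mice. Its counts in WT mice were 1 in replicate 1 and 73 to 240 in the others, with a median of 123 over the 7. In KI-96 mice the count was 0 in each of the 4 animals. In KI-571 mice the counts of replicates 1 to 4 were 0, 1, 0 and 2. In KI-FL mice they were 67, 0, 67 and 134. No mouse lay between 2 and 67 counts, so WT and KI-FL mice were each divided into high and low animals, while all KI-96 and KI-571 mice were low.

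As a level, Catspere1 was at 5.67 ± 3.41 CPM (SD, n = 7) for WT, 4.15 ± 3.61 CPM (SD, n = 4) for KI-FL and 0.0417 ± 0.0520 CPM (SD, n = 4) for KI-571. Taking 3 counts per library as the floor, the KI-96 level was at least 32.4-fold lower than the WT level and at least 23.7-fold lower than the KI-FL level. WT mice had 872 counts in all and KI-571 mice 3, with each KI-571 library under the same floor, so no size is given for this difference. The log2 fold change of KI-FL against WT mice was -0.45 (standard error 0.76), and their ranges overlapped. The mean was highest in WT, then in KI-FL mice, and KI-96 and KI-571 mice, all under the floor, cannot be ranked against each other. The KI-FL range overlapped those of all other genotypes.

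**Figure D1:**
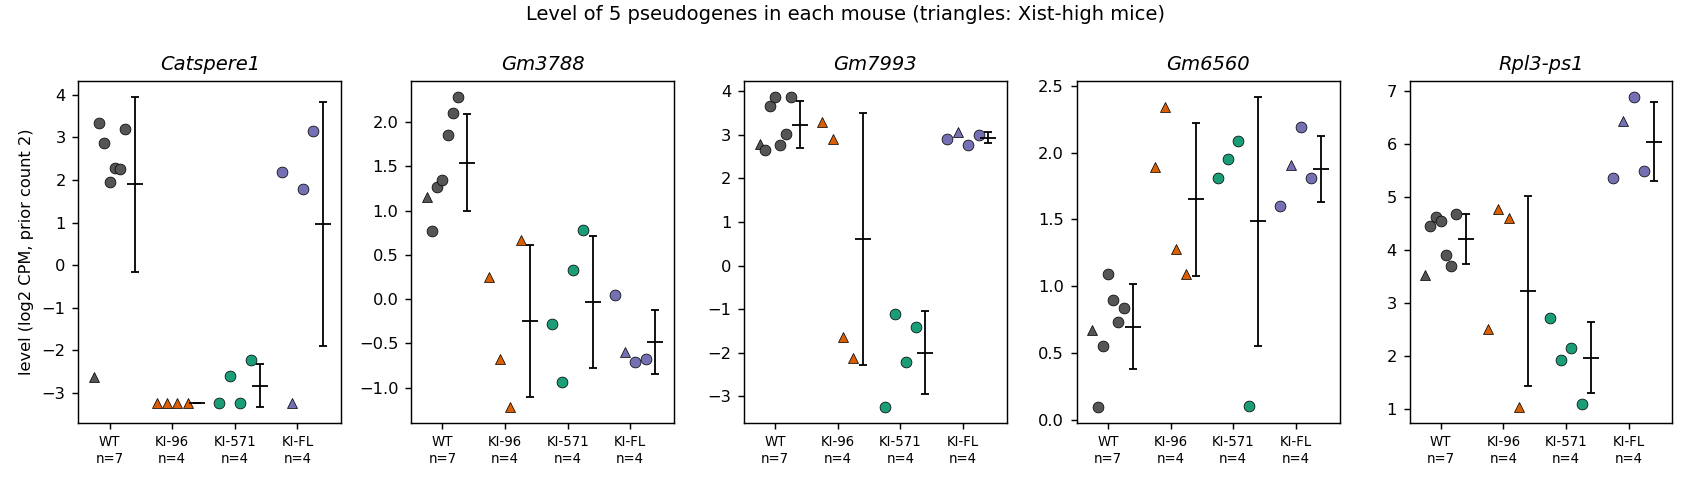
Level of each pseudogene in each of the 19 mice, as log2 CPM with a prior count of 2, by genotype (7 mice for WT, 4 for each KI genotype). Each symbol is 1 mouse, triangles are the 6 mice with high Xist, and the bar beside each group gives mean ± SD; the Catspere1 and Gm7993 panels show mice at separate levels, and the vertical axes differ between panels.

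The low class of Catspere1 held all 6 mice with high Xist and 4 mice with low Xist, which were the KI-571 mice. All 9 mice of the high class had low Xist. WT replicate 1 and KI-FL replicate 2, which were low among mice of their genotype, were thus both Xist-high. Among the 13 Xist-low mice, the 6 WT and 3 KI-FL mice were high and the 4 KI-571 mice were low, so that in these mice the division followed genotype. The 4 KI-96 mice were all Xist-high, and genotype and Xist class cannot be told apart in them. With log2 CPM of Xist in the model, the log2 fold change of KI-571 against WT mice was -6.75 (standard error 0.81), and the fitted value for KI-96 mice moved to -3.91 (standard error 1.96). Both are fitted values for groups under the floor, which depend on the prior count, and set no bound.

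Within the high class of Catspere1 the levels formed a lower set of 5 mice at 3.39 to 4.79 CPM and a higher set of 4 mice at 7.26 to 9.94 CPM. The means of these sets were 4.22 and 8.78 CPM, a ratio of 2.08. At the step itself, WT replicate 5 had 4.79 CPM with an exact 95% counting interval of 3.96 to 5.74, and WT replicate 3 had 7.26 CPM with an interval of 6.03 to 8.66. The lower set held WT replicates 4, 5 and 6 and KI-FL replicates 1 and 3, and the higher set WT replicates 2, 3 and 7 and KI-FL replicate 4, so each set held mice of both genotypes. This step was chosen after the values were seen. Catspere2 was at 9.55 to 13.8 CPM in the mice of the lower set and 16.8 to 25.7 CPM in those of the higher set. The step was thus not particular to Catspere1.

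Gm7993 was present in all WT and KI-FL mice, absent or nearly so in all KI-571 mice, and present in only some KI-96 mice. Its counts in WT mice ranged from 116 to 384 with a median of 212. In KI-FL mice the counts of replicates 1 to 4 were 111, 105, 133 and 120. In KI-571 mice they were 0, 6, 2 and 5. In KI-96 mice they were 134, 113, 4 and 3, so that replicates 1 and 2 lay with WT mice and replicates 3 and 4 with KI-571 mice.

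The level of Gm7993 was 9.93 ± 3.84 CPM (SD, n = 7) for WT, 7.56 ± 0.678 CPM (SD, n = 4) for KI-FL, 4.35 ± 4.91 CPM (SD, n = 4) for KI-96 and 0.184 ± 0.160 CPM (SD, n = 4) for KI-571. The fitted log2 fold change of KI-571 mice was -5.76 (standard error 0.95) against WT and -5.37 (standard error 0.98) against KI-FL mice, and the ranges did not overlap in either comparison. The KI-571 mice had 0 to 6 counts each, close to the floor of 3 counts, so the size of both fitted values is uncertain. Between KI-FL and WT mice the log2 fold change was -0.39 (standard error 0.62) with overlapping ranges. The mean of KI-96 mice does not describe any of them, since they lay at 9.67, 7.39, 0.217 and 0.124 CPM.

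The low class of Gm7993 held 2 of the 6 Xist-high mice, and these were KI-96 replicates 3 and 4. All 6 of its mice were also in the low class of Catspere1, which in addition held KI-96 replicates 1 and 2, WT replicate 1 and KI-FL replicate 2. Within the high class, WT replicates 3, 4 and 7 lay at 12.5 to 14.7 CPM and the other 10 mice at 6.20 to 9.67 CPM, with means of 13.9 and 7.50 CPM and a ratio of 1.85. The gap here was smaller than in Catspere1, and the counting interval of KI-96 replicate 1, 8.10 to 11.5 CPM, overlapped that of WT replicate 3, 10.9 to 14.3 CPM.

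**Figure D2:**
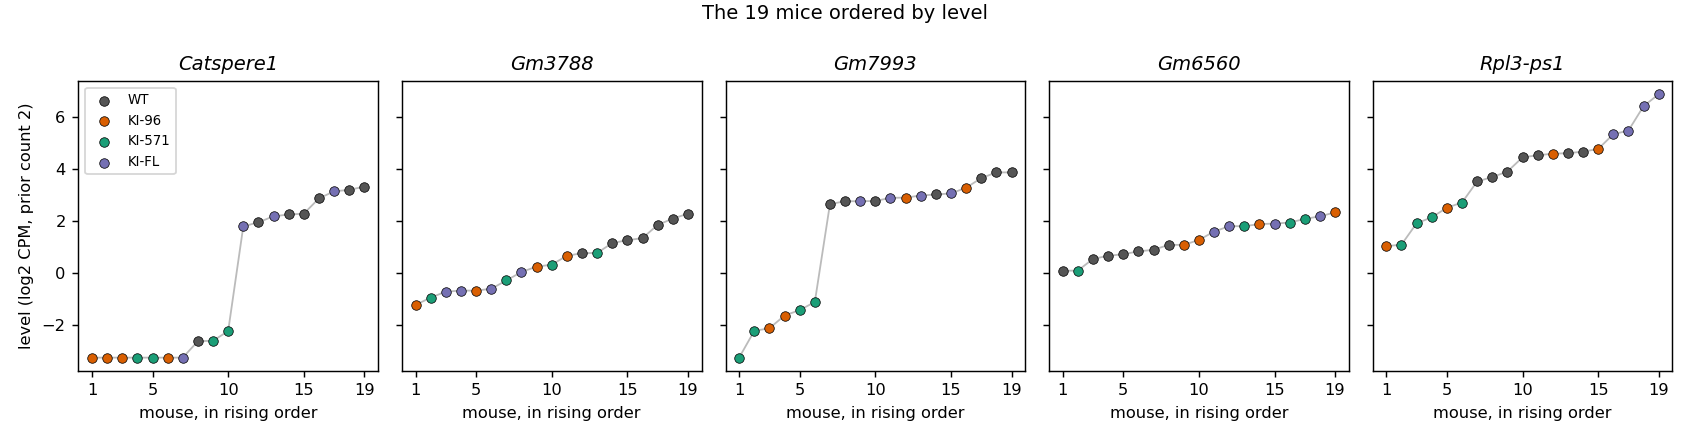
The 19 mice placed in rising order of level (log2 CPM, prior count 2) for each pseudogene, on 1 shared vertical axis, with 1 point per mouse coloured by genotype. Catspere1 and Gm7993 each show a single step of 4.04 and 3.77, whereas Gm3788, Gm6560 and Rpl3-ps1 rise without such a step.

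Rpl3-ps1 differed widely between mice but had no absent class, since its lowest count was 38. The counts of KI-FL replicates 1 to 4 were 614, 1091, 2338 and 689. In WT mice the counts ranged from 199 to 670 with a median of 409. In KI-571 mice they were 135, 62, 79 and 38. In KI-96 mice they were 78, 419, 445 and 47, so replicates 2 and 3 lay with WT mice and replicates 1 and 4 with KI-571 mice.

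The level of Rpl3-ps1 was 72.6 ± 36.7 CPM (SD, n = 4) for KI-FL, 19.2 ± 5.91 CPM (SD, n = 7) for WT, 14.8 ± 12.8 CPM (SD, n = 4) for KI-96 and 4.14 ± 1.84 CPM (SD, n = 4) for KI-571. KI-FL mice lay above every WT mouse and KI-571 mice below every WT mouse, with log2 fold changes of 1.92 (standard error 0.44) and -2.20 (standard error 0.53). KI-96 mice overlapped both WT and KI-571 mice. The 6 lowest mice were the KI-571 mice and KI-96 replicates 1 and 4. This cut was set with the values known, and the step above it, 0.81 in log2 CPM, was not the largest. These 6 mice shared 5 animals with the low class of Gm7993, among them all KI-571 mice, which were low in both genes. KI-96 replicate 1 and replicate 3 changed places between the genes, since replicate 1 was low for Rpl3-ps1 and high for Gm7993, and replicate 3 the reverse.

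Gm3788 was lower in KI than in WT mice, and its counts were small. Counts in WT mice ranged from 30 to 125 with a median of 47. Replicates 1 to 4 of KI-96 had 15, 8, 6 and 36 counts, those of KI-571 had 15, 7, 21 and 30, and those of KI-FL had 14, 7, 10 and 8. The level was 2.99 ± 1.18 CPM (SD, n = 7) for WT, 0.975 ± 0.520 CPM (SD, n = 4) for KI-571, 0.855 ± 0.531 CPM (SD, n = 4) for KI-96 and 0.628 ± 0.202 CPM (SD, n = 4) for KI-FL. All KI-96 and KI-FL mice lay below every WT mouse, and the highest KI-571 mouse, at 1.61 CPM, exceeded the lowest WT mouse, at 1.60 CPM.

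WT replicates 5 to 7, which had 23457270 to 26388542 counts in total, were at 3.52 to 4.77 CPM of Gm3788. WT replicates 1 to 4, with 17281603 to 18945441 counts in total, were at 1.60 to 2.44 CPM. The part of this division of the WT mice in the differences was not tested. Against WT replicates 1 to 4 alone the log2 fold changes of the KI-96, the KI-571 and the KI-FL group were -1.29, -1.11 and -1.75, and against all WT mice they were -1.79, -1.62 and -2.25.

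Gm6560 was the only 1 of the 5 with a higher mean in every KI genotype than in WT mice. Counts in WT mice ranged from 18 to 44 with a median of 39. Replicates 1 to 4 had 50, 76, 43 and 49 counts in the KI-96 group, 71, 63, 76 and 18 in the KI-571 group and 44, 46, 88 and 52 in the KI-FL group. The level was 1.55 ± 0.335 CPM (SD, n = 7) for WT, 3.07 ± 1.44 CPM (SD, n = 4) for KI-571, 3.23 ± 1.35 CPM (SD, n = 4) for KI-96 and 3.60 ± 0.639 CPM (SD, n = 4) for KI-FL. KI-571 replicate 4, at 0.967 CPM, lay with the lowest WT mouse at 0.962 CPM, and the other KI-571 mice lay above all WT mice. The KI-96 range began just above the WT range, at 2.03 CPM in its lowest mouse against 2.02 CPM in the highest WT mouse. The log2 fold changes were 1.05 (KI-96), 0.98 (KI-571) and 1.21 (KI-FL), with standard errors of 0.32 to 0.33.

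Counted over the 5 pseudogenes, the ranges of the genotype and WT did not overlap for 3 with KI-96 (1.24% of all tested genes), 2 with KI-571 (1.55%) and 3 with KI-FL (5.29%). For Catspere1 in KI-96 mice this rested on 1 count in WT replicate 1 against 0. Between the KI genotypes it was so for 1 pseudogene in KI-96 against KI-FL mice (3.16% of tested genes), 2 in KI-571 against KI-FL mice (4.32%) and 0 in KI-96 against KI-571 mice (2.85%). Since the 5 were chosen from these values, the counts are not evidence about them. The 3 comparisons with WT share the same WT mice.

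To ask whether levels fell into discrete classes, the 19 log2 CPM values of each tested gene were sorted and the largest difference between neighbouring mice was taken. For Catspere1 this gap was 4.04, with 10 mice below and 9 above, and the next largest gap was 0.63. For Gm7993 it was 3.77, with 6 mice below and 13 above, and the next largest was 1.03, among mice with at most 6 counts. The single gap made up 61.4% of the whole range of Catspere1 and 52.9% of that of Gm7993.

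For Rpl3-ps1 the largest gap was 0.94, between the top 2 mice and the rest, and made up 16.1% of a range of 5.85. The largest gaps of Gm3788 and Gm6560 were 0.51 and 0.45, and 36.79% and 40.48% of the tested genes had a gap at least as large. A range as wide as that of Rpl3-ps1 was thus reached in many small steps. The gaps were 3.30 to 4.67 for Catspere1 and 3.38 to 4.08 for Gm7993 over 23 other settings and left-out mice, and at most 1.39 for the other 3.

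A gap of at least 2 was found in 7.27% of tested genes (1346 genes), but 1231 of these had KI-FL replicate 4 alone below the gap. With at least 2 mice on each side, 0.319% of tested genes (59 genes) had such a gap, among them Catspere1 and Gm7993. Of these 59 genes, 16 were annotated pseudogenes, which is 2.66% of the 602 pseudogenes tested, and 32 were protein coding, which is 0.215% of the 14851 tested. Xist and the Y-linked Ddx3y, Eif2s3y, Uty and Kdm5d held the 5 largest gaps, at 6.55 to 8.61. Among the 59 genes Catspere1 had rank 11 and Gm7993 rank 17 by size of gap. Of all tested genes, 0.99% had a gap as large as that of Catspere1 and 1.38% as large as that of Gm7993.

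**Figure D3:**
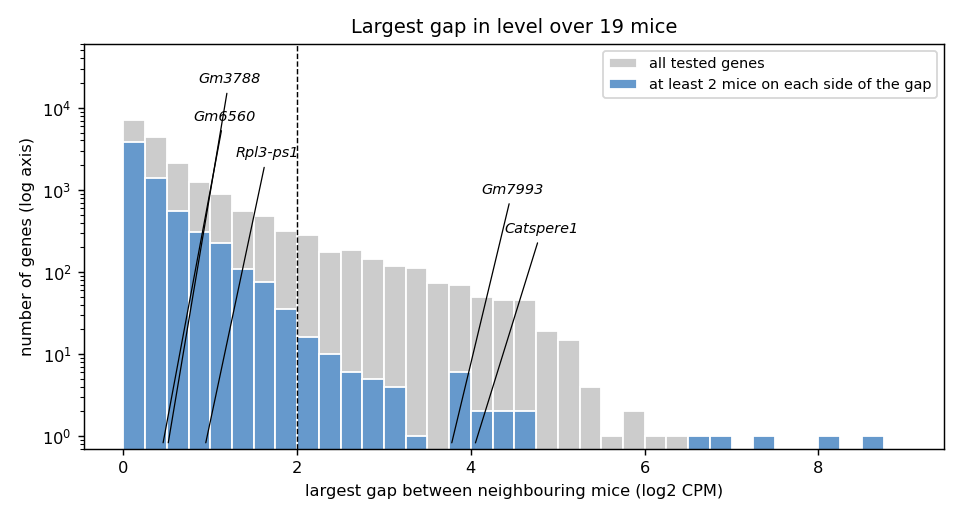
Largest gap between neighbouring mice (log2 CPM) for the 18521 tested genes, with the number of genes on a log axis. Grey bars count all tested genes, blue bars in front of them the genes with at least 2 mice on each side of the gap, the dashed line marks a gap of 2, and Catspere1 at 4.04 and Gm7993 at 3.77 lie to the right of it while the other 3 pseudogenes lie at 0.94 or less.

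The division of the mice was compared between genes with such gaps. No other gene of the 59 placed all 19 mice as Catspere1 did, and the nearest, the X-linked pseudogene Gm6472, placed 17 mice in the same way. For Gm7993 no other gene placed more than 15 mice alike. Neither division matched that of Xist, which 5 Y-linked genes matched in all 19 mice. In Gm7993, 3 of the 4 genotypes lay wholly on 1 side of the gap, as in 10 of the 59 genes. In Catspere1 2 did, as in 42 of the 59. Genes with like divisions were counted singly here, among them the choroid plexus genes Ttr, Kl and Folr1, each with 16 mice below. The 59 genes are thus not independent.

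The parent genes were measured in the same mice. Rpl3 and Odc1 had already been seen among called genes in earlier results of these data, so their calls are no independent support. Rpl3 was at 223 to 360 CPM in WT, 347 to 676 CPM in KI-96, 493 to 849 CPM in KI-571 and 238 to 296 CPM in KI-FL mice. Its log2 fold change in KI-571 mice was 1.07 against WT (standard error 0.17, adjusted p = 0.0281) and 1.20 against KI-FL mice (standard error 0.20, adjusted p = 0.0214), both from the quasi-likelihood test of edgeR, adjusted over all tested genes. Rpl3 thus rose in KI-571 mice, where Rpl3-ps1 had its lowest level, in comparisons that called 0.0324% of tested genes (0.027% higher and 0.0054% lower) and 0.0864% (0.0594% higher and 0.027% lower). KI-96 against KI-571 mice called 0.0054%, 1 gene that was lower, the Y-linked Kdm5d. KI-96 against KI-FL mice called 0 genes (0.0%, with 1648 at an unadjusted p under 0.05 and 38 by DESeq2). In KI-96 mice the log2 fold change of Rpl3 against WT was 0.80 (standard error 0.17, adjusted p = 0.223 by the same edgeR test), and for KI-FL -0.13 (adjusted p = 0.734).

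The rise of Rpl3 against WT mice did not pass when any of WT replicates 3, 4, 5 or 7 or KI-571 replicates 1 or 2 was left out (edgeR adjusted p = 0.0506 to 0.0762, log2 fold change 0.84 to 1.14). The rise against KI-FL mice did not pass without KI-571 replicate 1 or without KI-FL replicate 1, 2 or 4 (edgeR adjusted p = 0.0569 to 0.0826). Relative to Rpl3, the pseudogene took 21 ± 7.08% of the pair's counts (SD, n = 4) for KI-FL, 6.75 ± 2.93% (SD, n = 7) for WT, 3.39 ± 3.35% (SD, n = 4) for KI-96 and 0.676 ± 0.179% (SD, n = 4) for KI-571. The share ran from 0.394% in the lowest KI-96 mouse (exact 95% interval 0.289 to 0.523) to 28.5% in the highest KI-FL mouse (27.5 to 29.5). Within the aligned bases, only the substitutions shown above can separate the reads of the pair.

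Odc1 was at 36.4 to 56.1 CPM in WT, 49.2 to 59.7 CPM in KI-96, 71.8 to 76.5 CPM in KI-571 and 39.4 to 53.5 CPM in KI-FL mice. Every KI-571 mouse lay above every other mouse. For KI-571 against WT the log2 fold change of Odc1 was 0.62 (standard error 0.11, adjusted p = 0.0285 by edgeR's quasi-likelihood test), and it did not pass when any of WT replicates 1, 3, 4, 5 or 7 or KI-571 replicates 1, 2 or 4 was left out (edgeR adjusted p = 0.0506 to 0.207). Against KI-FL mice it was 0.61 (standard error 0.12, edgeR adjusted p = 0.0602), which does not pass 0.05. KI-96 replicates 3 and 4, which were low for Gm7993, were at 51.7 and 59.1 CPM of Odc1, and replicates 1 and 2, which were high for it, at 59.7 and 49.2 CPM.

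Catspere2 followed Catspere1 more closely than any other tested gene, with a Pearson r of 0.88 over the 19 mice. It was expressed in every mouse, at 69 to 591 counts, without a gap above 0.34. Its 9 lowest mice were all in the low class of Catspere1. KI-96 replicate 3 departed from this, with 224 counts of Catspere2 and 0 of Catspere1, and in that library 24.2% of reads fell on no gene. The log2 fold change of Catspere2 against WT was -1.15 in KI-96 mice (edgeR adjusted p = 0.564) and -1.17 in KI-571 mice (edgeR adjusted p = 0.284). Neither passed. With Xist as a covariate these values were -0.013 (standard error 0.48) in KI-96 mice and -1.18 (standard error 0.31) in KI-571 mice. All KI-96 mice were Xist-high, so genotype and Xist class cannot be told apart in them.

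Tmsb10 and Pkm passed in no comparison. Tmsb10 was at 121 to 192 CPM in WT mice and 63.8 to 175 CPM in KI mice, and Gm3788 took 2.13 ± 0.927% of the pair's counts (SD, n = 7) for WT and 0.406 ± 0.0990% (SD, n = 4) for KI-FL. Pkm was at 944 to 1220 CPM in WT and 1370 to 1490 CPM in KI-FL mice, with a log2 fold change of 0.37 (standard error 0.13, edgeR adjusted p = 0.155). Gm6560 took 0.141 ± 0.0331% of the pair's counts (SD, n = 7) for WT and 0.250 ± 0.0366% (SD, n = 4) for KI-FL.

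**Figure D4:**
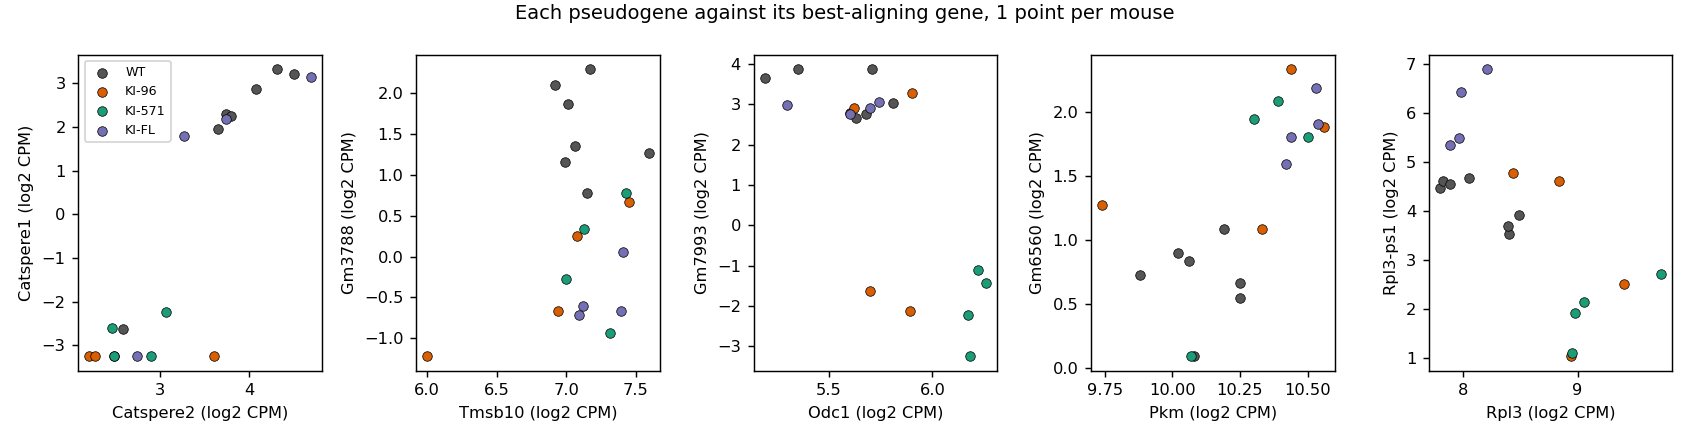
Level of each pseudogene against that of its best-aligning gene, both as log2 CPM with a prior count of 2, with 1 point per mouse coloured by genotype. Catspere1 rises with Catspere2 (Pearson r 0.88) and Gm6560 with Pkm (0.69), Gm3788 shows little relation to Tmsb10 (0.24), and Gm7993 and Rpl3-ps1 fall as Odc1 (-0.74) and Rpl3 (-0.72) rise.

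Over the 19 mice, Pearson r between pseudogene and parent was -0.74 for Gm7993 and Odc1, -0.72 for Rpl3-ps1 and Rpl3, 0.69 for Gm6560 and Pkm and 0.24 for Gm3788 and Tmsb10. These values are descriptions, since the mice share genotypes and the genes of a pair share a library and can share reads. After the genotype means were removed, r was 0.77 for Catspere1 and Catspere2, 0.50 for Gm6560 and Pkm, 0.47 for Gm3788 and Tmsb10, -0.25 for Rpl3-ps1 and Rpl3 and -0.11 for Gm7993 and Odc1. The negative values of Gm7993 and Rpl3-ps1 thus came mostly from differences between genotypes. Among the pseudogenes themselves r ran from -0.69 for Gm3788 and Gm6560 to 0.67 for Gm7993 and Rpl3-ps1.

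Neighbouring genes were set beside each pseudogene. The nearest tested genes that did not overlap the pseudogene were Adss and Catspere2 for Catspere1 (r 0.18 and 0.88). They were Rps3a1 and Gm37876 for Gm3788 (-0.094 and 0.16), and Gm5559 and Cnot6l for Gm7993 (-0.013 and -0.16). For Gm6560 they were Gm9057 and A930003O13Rik (-0.17 and -0.12), and for Rpl3-ps1 Usp9x and Ddx3x (0.47 and 0.21). Of the overlapping genes, Lrba had an r of -0.35 with Gm3788, and 6030443J06Rik an r of 0.032 with Gm6560. Within 500 kb of a pseudogene there were 4 to 11 other tested genes, 37 in all, and edgeR called 0 of these in each of the 6 comparisons, with 1 to 4 at an unadjusted p under 0.05 and 0 called by DESeq2. Over all 18521 tested genes edgeR called 0.0 to 0.194% per comparison, with 1021 to 3099 genes at an unadjusted p under 0.05. At such shares 0 of 37 is no result about the 37. Around the 4 processed pseudogenes these genes had an r of at most 0.47 in size.

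The 3 genes with the most similar level across mice were chosen for each pseudogene by Pearson r over the 19 mice. They were Catspere2, Tmem114 and B3galnt2 (0.88, 0.81 and 0.81) for Catspere1, and Pex7, Pex3 and the pseudogene Gm10180 (0.91, 0.90 and 0.87) for Gm3788. For Gm6560 they were Chid1, Snd1 and Ncaph2 (0.86, 0.86 and 0.85). For Gm7993 they were the pseudogene Oaz2-ps (0.82), Gm4425 (0.79) and Sh3bp5 (0.74), and for Rpl3-ps1 A730060N03Rik (0.91), Cdk12 (0.83) and Rhcg (0.79). None of these but Catspere2 lies on the chromosome of its pseudogene.

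Some of the genes that resembled Gm7993 and Rpl3-ps1 lie near the parent gene instead. Gm4425 lies 4.57 Mb from Odc1 on chromosome 12 and had 0 counts in all 4 KI-571 mice, 0 to 12 in KI-96, 0 to 9 in KI-FL and 7 to 25 in WT mice. Apart from Odc1, 6 of the 20 genes with the largest r in size with Gm7993 lay within 10 Mb of Odc1, a window that held 85 or 0.459% of the tested genes. Within 10 Mb of Gm7993 itself lay 1 of the 20, from 114 or 0.616% of the tested genes. The 6 were Gm19196, Gm4425, Gm9866, Rnf144a, Gm49329 and Gm48667, of which Gm19196 and Gm9866 ran opposite to Gm7993 (r -0.80 and -0.74).

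A730060N03Rik is annotated as an antisense gene, and without strand its reads cannot be told apart from those of its partner. It lies 1.96 Mb from Rpl3 on chromosome 15 and was at 9.10 to 11.7 CPM in KI-FL, 5.10 to 9.03 CPM in WT, 3.64 to 8.31 CPM in KI-96 and 1.88 to 4.08 CPM in KI-571 mice. Its group medians had the same order as the mean levels of Rpl3-ps1. It was picked for its r with Rpl3-ps1, so a like order of genotypes follows from the choice and is no support. The KI-571 range lay below the WT range, and the KI-FL range began just above it, at 9.10 against 9.03 CPM. Pla2g6, 0.79 Mb from Rpl3, had an r of 0.76. Together 2 of the 20 genes with the largest r in size with Rpl3-ps1 lay within 10 Mb of Rpl3, which held 1.64% of the tested genes, and 0 within 10 Mb of Rpl3-ps1. The other pairs did not share this pattern. For Gm3788, 2 of the 20 lay within 10 Mb of Gm3788 (1.41% of the tested genes) and 0 within 10 Mb of Tmsb10. For Gm6560 it was 0 around both genes. For Catspere1 the same 2 genes lay around both Catspere1 and Catspere2. These windows were chosen after the values were seen, genes of a region are not independent, and whether the mice differ in their DNA there was not tested.

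**Figure D5:**
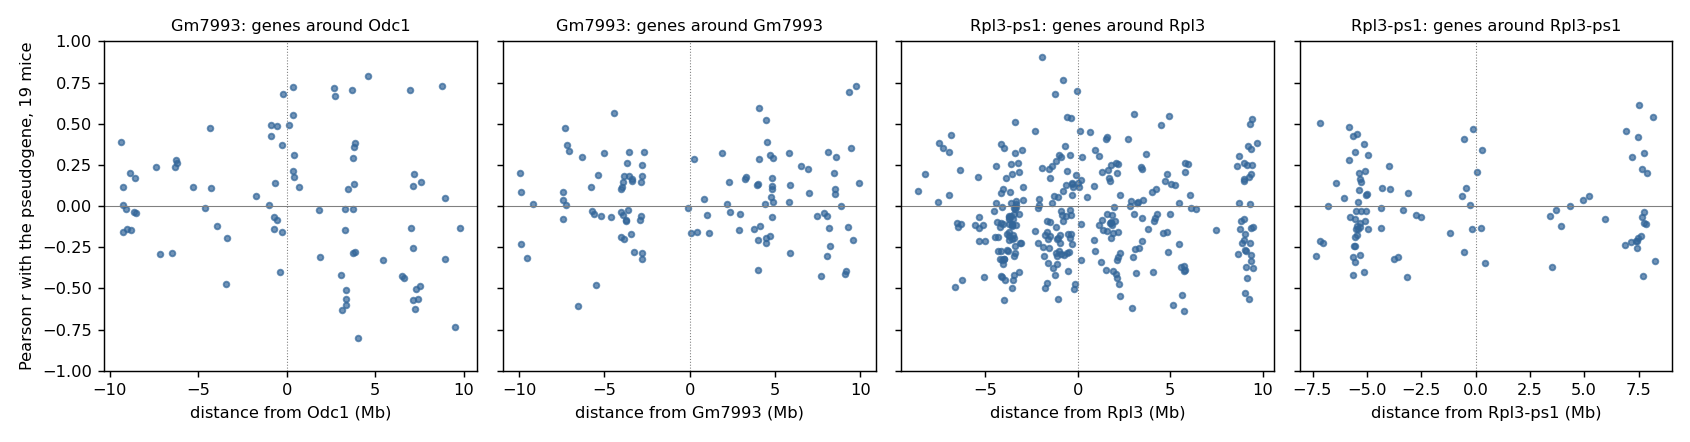
Pearson r over 19 mice between a pseudogene and the tested genes within 10 Mb of its parent gene or of the pseudogene itself, against the distance from that gene in Mb, with 1 point per gene. Genes around Odc1 reach an r of 0.79 and -0.80 with Gm7993, and A730060N03Rik, 1.96 Mb from Rpl3, reaches 0.91 with Rpl3-ps1.

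The other genes of each family were counted from fixed lists without the 5 pseudogenes. Of the 12 CatSper channel genes, 6 others were tested, and edgeR called 0 in each comparison, with 1 to 3 at an unadjusted p under 0.05 and 0 called by DESeq2. Since edgeR called only 0.0 to 0.194% of all tested genes per comparison, 0 of 6 is no result about these 6 genes. Their median log2 fold change against WT was -0.31 (KI-96), -0.14 (KI-571) and -0.061 (KI-FL), beside -0.015, -0.0089 and -0.028 over all tested genes. Catsper1, a pore-forming subunit, had 0 counts in every mouse, and Catsper2 had 68 to 219. Testis markers were near absent, with Akap4 at 0 in all mice, and the summed level of the 7 markers was at most 1.78 CPM. Mice in the high class of Catspere1 thus had no counts on Catsper1.

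In the Rpl3 family, Rpl3 was the only tested member besides Rpl3-ps1 and Rpl3l, a muscle paralog of Rpl3 with 0 to 32 counts, and Rpl3-ps2 stayed at 5 counts or fewer. Of 33 other tested ribosomal protein pseudogenes, edgeR called 0 in KI-96 and 0 in KI-571 mice against WT (6 each at an unadjusted p under 0.05, and 0 by DESeq2), and 1 was lower in KI-FL mice. Of 411 other tested processed pseudogenes, 1 was higher and 2 were lower in KI-FL mice, beside 0.194% of all tested genes (0.081% higher and 0.113% lower). In this comparison DESeq2 called 509 of the 18521 tested genes and 21 of the 411 pseudogenes. Of these 411, 80 had an unadjusted p under 0.05 in edgeR. In KI-96 mice edgeR called 0 of them, beside 0.027% of all tested genes (0.0054% higher and 0.0216% lower), with 38 at an unadjusted p under 0.05 and 2 by DESeq2. The 0.0216% were the Y-linked Kdm5d, Ddx3y, Eif2s3y and Uty, and all KI-96 mice were Xist-high. In KI-571 mice edgeR called 0 of the 411, beside 0.0324% of all tested genes, with 49 unadjusted and 3 by DESeq2. Over all tested genes 1380 (KI-96), 1430 (KI-571) and 3099 (KI-FL) had an unadjusted p under 0.05 in edgeR. The median log2 fold change of these 411 was 0.082 (KI-96), 0.071 (KI-571) and 0.022 (KI-FL), and that of the 33 was 0.19, 0.48 and 0.51.

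Fewer cells of a type and less RNA per cell cannot be told apart in bulk striatum, so markers of other cell types were set beside the pseudogenes. The summed level of 4 choroid plexus markers ranged from 9.32 to 5170 CPM, yet its log2 value had an r between -0.24 and 0.067 with the 5 pseudogenes. Summed blood genes ranged from 163 to 483 CPM in KI-571 and 43.5 to 103 CPM in KI-FL mice, with an r of -0.66 with Rpl3-ps1 and -0.45 with Gm7993. The 4 oligodendrocyte markers had an r of 0.66 with Gm3788, at 7690 to 13500 CPM. The part of these cell types in the levels was not tested.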

How the data were processed

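Striatal RNA of 19 mice was sequenced, and the files deposited by the authors hold raw counts for each gene. The authors trimmed adapters (BBduk), aligned to GRCm38 (STAR) and counted reads on genes (HTSeq). Versions, annotation and strand setting are not given in the sources used here. Reads aligned to more than 1 place made up 3.07 to 5.27% of reads, and these and the other 4 summary lines, 20.8 to 32.8% in all, were not treated as genes. Another 4 columns belong to none of these mice and were not used. Genes were filtered with filterByExpr (minimum count 10, total 15), scaled by TMM and fitted together by genotype with edgeR 4.0.16 (quasi-likelihood F-test, threshold 0.05 after Benjamini-Hochberg adjustment). Levels are CPM, with a prior count of 2 where log2 CPM is given. Positions and transcripts came from GENCODE mouse release 21 on GRCm38, and alignments from BLAST 2.17.0 and Biopython 1.88. Parents are the best-aligning genes, and the neighbours, 3 most similar genes and lists followed a set rule. The pseudogenes and lists were chosen with earlier results of these data known. Alternatives were DESeq2 1.42.0, its size factors, no filter, Xist as a covariate, WT replicates 1 to 4, each mouse left out and the replicate number as a block. The procedure was tested on simulated data. Which mice were littermates, and the sacrifice batch that the authors put in their model, are not given per mouse, and the WT sample they left out is not named, so all 7 WT mice were used and p-values measure the spread between these mice. Intervals and floors cover counting error only.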

Additional observations from a re-analysis of the deposited data

Results flagged for a closer look

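Among 40 groups of values (5 pseudogenes and their 5 parent genes in 4 genotypes), 5 held a mouse far from the others by Dixon's criterion, where chance gives about 2. On the log2 CPM scale, WT replicate 1 had a Catspere1 value of -2.62 (1 count), while its 6 WT companions spanned 1.96 to 3.33. KI-571 replicate 4 had a Gm6560 value of 0.10 (18 counts), below the 1.81 to 2.09 of the 3 others. KI-FL replicate 1 had a Gm3788 value of 0.049 (14 counts), above the -0.71 to -0.60 of the 3 others. For Tmsb10, WT replicate 3 lay at 7.59, above a range of 6.92 to 7.17. For Rpl3, KI-571 replicate 1 lay at 9.73, above a range of 8.95 to 9.06, and without this mouse the log2 fold change of KI-571 against KI-FL was 0.99 and did not pass.

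The change of Rpl3 from WT was larger in KI-571 than in KI-FL mice, by 1.20 on the log2 scale in their direct comparison (edgeR adjusted p = 0.0214). In Catspere1, the KI-FL group also held a single low mouse, replicate 2 with 0 counts, which did not pass the same criterion, whose limit is higher for 4 mice than for 7.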

How the results depend on the processing

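The pseudogenes' log2 fold changes kept their sign in 741 of 750 values recomputed over 6 comparisons. With Xist as a covariate, 3 fold changes of Catspere1 moved beyond the spread between replicates, to -3.91 for KI-96 against WT, -4.05 against KI-FL and 2.84 against KI-571 mice (standard error 11.14). Against WT, edgeR called 5 genes for KI-96, 6 for KI-571 and 36 for KI-FL. Between KI lines it called 0 (KI-96 against KI-FL, 1648 unadjusted), 16 (KI-571 against KI-FL) and 1 (KI-96 against KI-571). The 4 genes called lower for KI-96 against WT were the Y-linked Kdm5d, Ddx3y, Eif2s3y and Uty. Kdm5d was also the 1 gene called between KI-96 and KI-571, and all KI-96 mice were Xist-high. In the same order of comparisons the number of calls was 28, 102, 509, 38, 88 and 35 with DESeq2 and 23, 78, 85, 24, 25 and 35 without the filter. With Xist as a covariate it was 0 for both KI-96 and KI-FL against WT (235 and 2907 genes at an unadjusted p under 0.05), 9 in KI-571 against KI-FL and 0 in KI-96 against KI-571 mice (278 unadjusted). With WT replicates 1 to 4 it was 0, 0 and 0 against WT (527, 748 and 1540 unadjusted), 10 in KI-571 against KI-FL and 2 in KI-96 against KI-571 mice. The replicate block gave 0, 1, 0, 1, 9 and 0 calls (541, 1492 and 805 unadjusted where 0). Same-numbered mice share only a number, with correlations of deviations from -0.128 to 0.290, and 6 of 19 mice correlated best with their own number. With 1 mouse left out the counts ranged from 1 to 10, 0 to 46, 0 to 159, 0 to 9, 1 to 21 and 0 to 5 in edgeR. The cause was not tested. Each WT mouse in turn was among those left out, but whether the sample that the study dropped is 1 of these 7 is not known, and no sacrifice batch term was fitted.

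The number of genes with a gap of at least 2 was 2852 with a prior count of 0.5, 617 with a prior count of 5, 59 with at least 2 mice on each side, and 114 to 1430 with a mouse left out, lowest without KI-FL replicate 4. The gaps of Catspere1 and Gm7993 stayed at 3.30 or more. With the replicate block, Odc1 in KI-571 against WT mice had an adjusted p of 0.0981, and with WT replicates 1 to 4 Odc1 and Rpl3 both had 0.0946. Rpl3 in KI-96 mice passed with DESeq2 against WT (0.0121) and KI-FL mice (0.00414) and without the filter (0.0237 and 0.0170). Odc1 in KI-571 against KI-FL mice passed with DESeq2 (0.00115), its size factors (0.0426), no filter (0.0445) and without WT replicate 3 (0.0233). Levels under 0.114 to 0.237 CPM lie at the floor of 3 counts, so single absent mice cannot be ranked.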

Other observations

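The 59 genes with a gap of at least 2 and at least 2 mice on each side held 14 annotated pseudogenes beside Catspere1 and Gm7993. They did not all divide the mice in the same way. Gm6969 on chromosome 12 had a gap of 4.69, with all 4 KI-FL mice, 4 WT, 2 KI-96 and 1 KI-571 mouse below it. Gm8730 on chromosome 8 had a gap of 4.31, and the only mice above it were 2 of the 7 WT animals. Gm13736 on chromosome 2 had a gap of 3.88 and was high in 3 WT and 3 KI-FL mice, and BC002163 on chromosome 16, with a gap of 3.94, was high in 4 WT mice and 1 KI-FL mouse. Atp6v0c-ps2 on chromosome 6 had a gap of 3.80 and divided every genotype. Gm9825, also on chromosome 6, had as many mice of each genotype below its gap of 2.18 as Atp6v0c-ps2 did. High and low mice within 1 genotype, WT included, were thus found for further pseudogenes on other chromosomes.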
